A study of Mus musculus with 18 samples.

Results

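The genes described here code for 10 enzymes that build, lengthen, desaturate, activate and store fatty acids: the elongases Elovl2, Elovl5 and Elovl6, the desaturases Fads1, Fads2, Scd1 and Scd2, fatty acid synthase Fasn, the acyl-CoA synthetase Acsl6 and the acyltransferase Agpat3. They were picked by name, as the rows of the deposited expression table whose NCBI gene number carries one of these symbols. All 10 were found among the 22657 rows of the table, and all 10 passed the filter of at least 1 FPKM (sequenced fragments per kilobase of transcript, scaled to the size of the library) in at least 3 samples, which left 15790 genes for testing.

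Mammals cannot make linoleic and alpha-linolenic acid, and convert these dietary acids to long polyunsaturated chains in the endoplasmic reticulum by alternating desaturation and elongation. Saturated chains come from malonyl-CoA through Fasn, are lengthened by Elovl6 and receive their first double bond from the stearoyl-CoA desaturases Scd1 and Scd2. The testis is known for its high content of very long polyunsaturated fatty acids, which germ cells carry in their phospholipids and which Elovl2 is needed to make.

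Cultured testes of ICR mice were measured by RNA sequencing in 6 groups of 3 samples. Busulfan, an alkylating agent toxic to spermatogonia, had been injected once at 40 μg per g body weight into mice of 3 weeks of age, and testes were taken 2 weeks later. Testes were then kept for 48 h in DMEM/F12 medium containing 10% FBS with no alginate oligosaccharides (AOS), which are short chains cut from a seaweed polysaccharide, or with AOS at 10 or 50 μg/mL. A0, A10 and A50 are testes of mice that received no busulfan, cultured with 0, 10 and 50 μg/mL AOS, and B0, BA10 and BA50 are testes of busulfan mice at the same 3 concentrations. Each of these groups was in culture for the whole 48 h, so uncultured testis is not among them, and the methods give 6 testes per treatment, repeated 3 times, without saying which animals went into which sample. The p-values therefore measure the spread between these samples.

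The depth of the samples is unknown, because the table holds FPKM alone. FPKM sums lay between 463970 and 511274, and 14291 to 15040 genes reached 1 FPKM in a sample. Markers of the testis cell types were present, with Prm1 at 622 to 3057 FPKM and Clu of Sertoli cells at 882 to 4513 FPKM. All 10 spermatocyte markers were lower with busulfan, averaged over the AOS levels, and 6 of the 9 spermatogonium markers tested were lower, while 0 of 10 elongating spermatid markers passed the test. Stra8 was at 14.2 to 35.4 FPKM without busulfan and at most at 0.12 FPKM with it. The B0 samples stood apart in fat cell markers, whose sum over 10 genes was 267 to 953 FPKM against 118 to 211 FPKM in all other samples, and B0 replicate 1 was the highest. Keratins and other simple epithelium markers summed to 81.4 to 216 FPKM in B0 and to 17.8 to 48.9 FPKM elsewhere. A10 replicate 3 had the lowest Clu level of all samples, and correlations between replicates were lowest in A10, at 0.929 for its least alike pair.

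Busulfan moved 6 of the 10 genes when averaged over the 3 AOS levels, 3 up and 3 down. Elovl2 fell to 0.408 times its untreated mean and Acsl6 to 0.536 times, whereas Scd1 rose 2.45-fold. Elovl6 and Scd2 rose by less and Fasn fell slightly. Over all genes tested, 38.1% were called in this comparison (limma, Benjamini-Hochberg adjusted p under 0.05), so that 6 of 10 is to be read against that share. The median log2 change was 0.095 over the 10 genes and 0.012 over all genes tested.

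**Figure D1:**
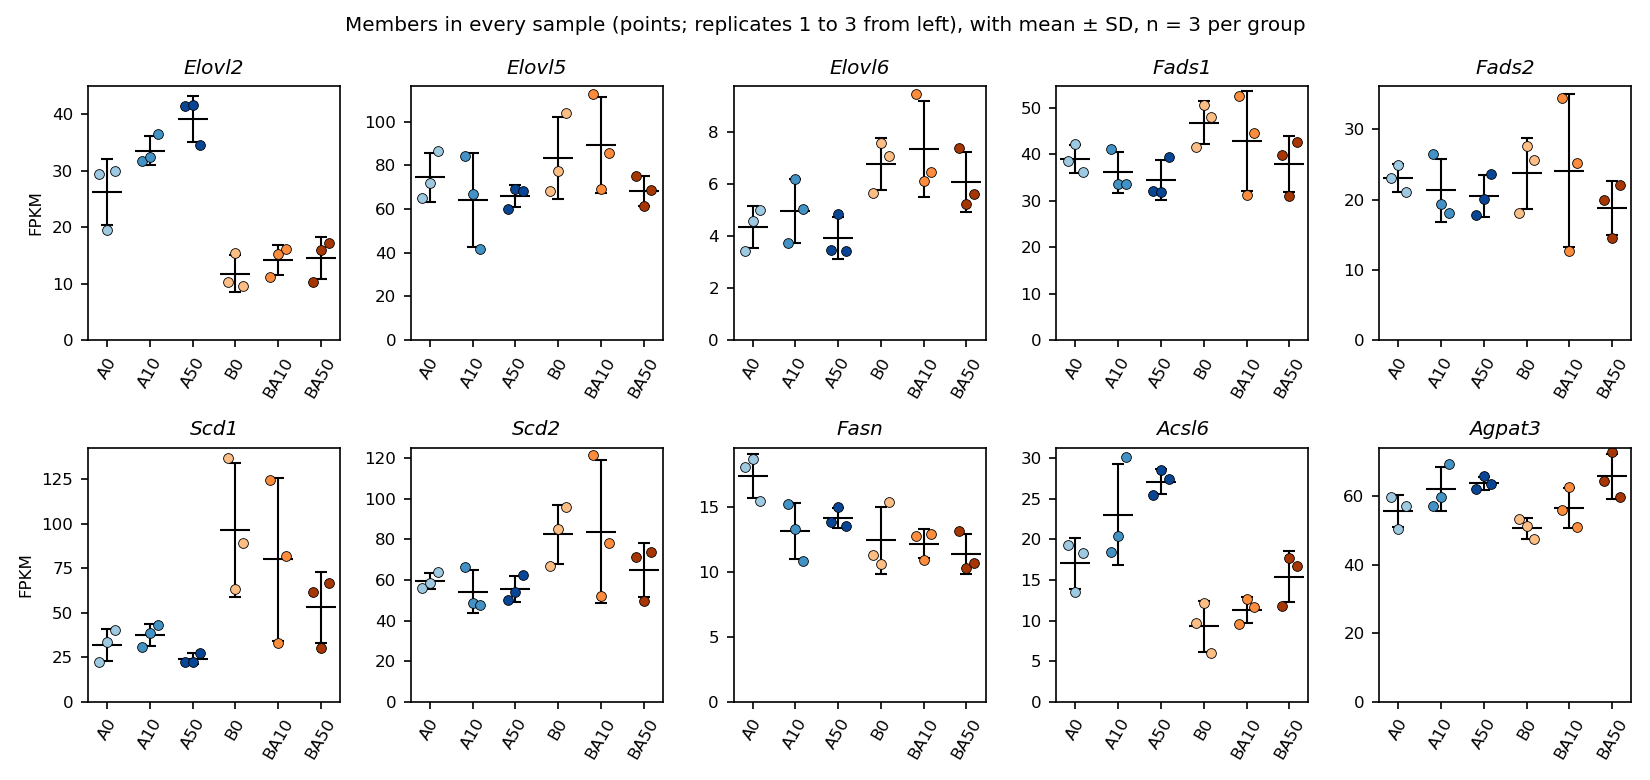
FPKM (vertical axes, each from 0) of the 10 genes in the 18 samples, 1 panel per gene, with the groups on the horizontal axis; points are replicates 1 to 3 from left to right and bars are the mean ± SD of 3. Elovl2 lay at 9.62 to 17.3 FPKM in the busulfan samples and at 19.6 to 41.65 FPKM in the others, and the Scd1 points of B0 and BA10 are spread most widely.

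Elovl2 (NCBI gene 54326, GRCm38.p6 chr13:41182382-41220403, minus strand, protein coding) lengthens polyunsaturated chains of 20 and 22 carbons. It stood at 29.4, 19.6 and 30.02 FPKM in the 3 A0 samples, at 31.7, 32.5 and 36.6 FPKM in A10, and at 41.5, 41.65 and 34.6 FPKM in A50. In the busulfan testes it stood at 10.3, 15.5 and 9.62 FPKM in B0, at 11.2, 15.2 and 16.2 FPKM in BA10, and at 10.3, 15.9 and 17.3 FPKM in BA50. Every busulfan sample was below every untreated sample, and Elovl2 was the only one of the 10 genes with no overlap between these 9 and 9 samples; of all genes tested, 10.2% had none.

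The log2 change of Elovl2, on the scale of FPKM + 1 used for all fitted changes here, was -1.23 ± 0.13 (SE) over the 3 AOS levels, with an adjusted p of 1.45e-06. An exact permutation test that exchanged samples within each AOS level gave a two-sided p of 0.00025, the smallest its 8000 arrangements allow. The fall was also called at each level on its own, by -1.10 in B0 compared to A0 (adjusted p = 0.0026), by -1.20 in BA10 compared to A10 (adjusted p = 0.00102) and by -1.40 in BA50 compared to A50 (adjusted p = 0.000229). The change of Elovl2 with AOS in busulfan testes minus that in untreated testes did not pass the test, at -0.10 (95% interval -0.75 to 0.55) for 10 μg/mL and -0.31 (95% interval -0.96 to 0.35) for 50 μg/mL.

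Elovl2 was low in the samples that were low in spermatocyte markers. The summed level of these 10 markers was 327 to 543 FPKM without busulfan and 81.7 to 195 FPKM with it, and Elovl2 stood at 6 to 7.80 FPKM per 100 FPKM of the marker sum in the untreated samples and at 8.17 to 12.4 in the busulfan samples. Within groups too, samples with more of the markers had more Elovl2: the deviations of the samples from their group means had a Pearson r of 0.879 with the mean of the spermatocyte markers (18 samples, which share library and scaling; a description). Fewer cells of a type and less RNA per cell cannot be told apart in these bulk samples, and the part of the marker levels in the change of Elovl2 was not tested.

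**Figure D2:**
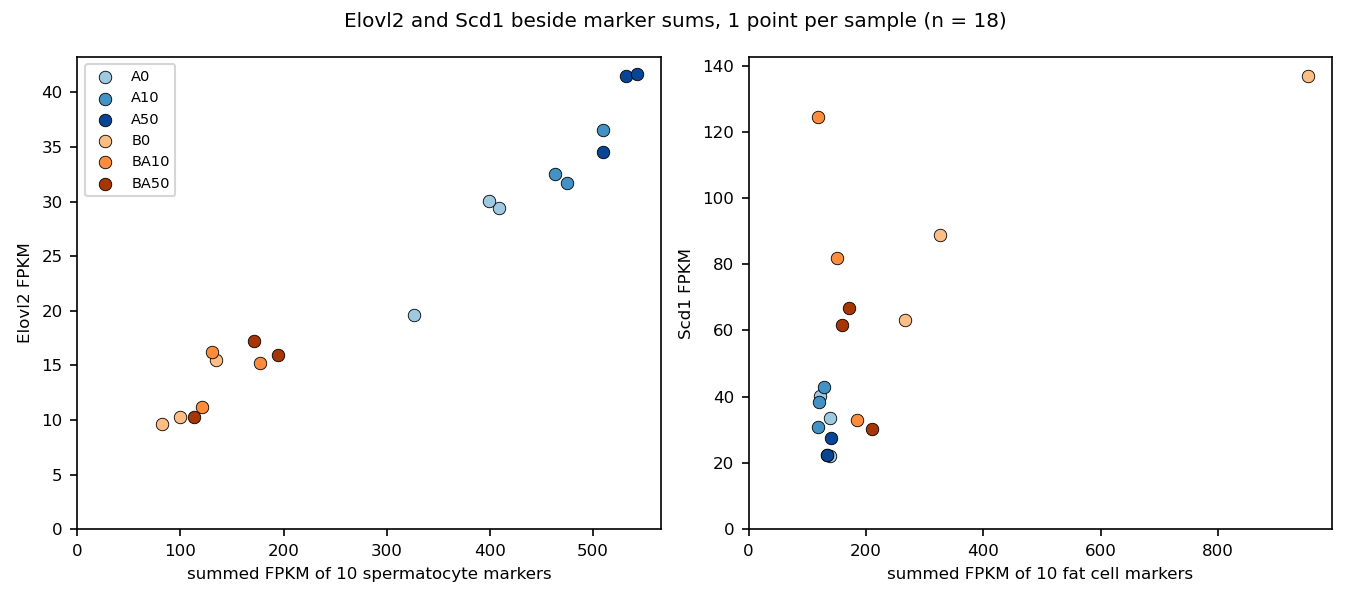
Elovl2 FPKM against the summed FPKM of 10 spermatocyte markers (left) and Scd1 FPKM against the summed FPKM of 10 fat cell markers (right), 1 point per sample and colours by group, all axes from 0. The busulfan samples lie together at the lower left of the Elovl2 panel, at sums of up to 195 FPKM, while in the Scd1 panel B0 replicate 1 lies alone at a sum of 953 FPKM and BA10 replicate 1 has nearly as much Scd1 at a sum of 118 FPKM.

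The 250 bases before the RefSeq start sites of Elovl2 and Acsl6 are shown because these are the members that fell at every AOS level (build GRCm38.p6, 5′ to 3′ on the strand of the gene). Capitals mark CCAAT, the sequence bound by NF-Y, and GGGCGG, the GC box bound by Sp1, on either strand. The Elovl2 window is chr13:41220404-41220653 on the minus strand, at the outer of its 2 listed starts, and the Acsl6 window is chr11:54303574-54303823 on the plus strand, the outermost of its 3.
Elovl2: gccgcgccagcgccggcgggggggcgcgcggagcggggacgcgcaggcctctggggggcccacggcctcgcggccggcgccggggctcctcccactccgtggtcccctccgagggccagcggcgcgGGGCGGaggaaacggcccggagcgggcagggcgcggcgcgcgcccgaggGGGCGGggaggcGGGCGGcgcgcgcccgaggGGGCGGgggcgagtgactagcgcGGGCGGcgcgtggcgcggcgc
Acsl6: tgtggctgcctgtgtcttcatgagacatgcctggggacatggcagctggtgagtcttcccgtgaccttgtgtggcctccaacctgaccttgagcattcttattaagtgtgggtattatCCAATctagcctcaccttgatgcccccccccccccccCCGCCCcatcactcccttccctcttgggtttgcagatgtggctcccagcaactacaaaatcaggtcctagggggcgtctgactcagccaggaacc
Elovl2 held 5 GC boxes and no CCAAT, and Acsl6 held 1 of each in the window shown. The other listed Elovl2 window held neither motif. For 7 of the 10 genes 10 windows were listed, and Scd1, Scd2 and Fads1 had none. A gene was counted if any of its windows held the motif, whereas the shares of all promoters are per window, so counts and shares are not on the same scale. GGGCGG was in the windows of 3 of the 7 genes (Elovl2, Acsl6 and Fads2) and in 32.7% of all 32851 promoter windows, and CCAAT in those of 3 (Acsl6, Elovl5 and Fasn) and in 33.8%. The E-box CACGTG was in the Elovl5 window and in 6.02% of all windows. The sterol regulatory element TCACNCCAC, in 1.05% of all windows, and the cAMP response element TGACGTCA, in 1.55%, were in 0 of the 7 genes' windows. In Fasn 2 of its 3 CCAAT matches overlap, one on each strand. A match is a run of letters, not a shown binding site.

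Elovl5 (gene 68801, chr9:77917365-77984519, plus strand), which lengthens shorter polyunsaturated chains than Elovl2 does, was the most abundant member per length in A0, at 74.5 ± 11.1 FPKM (SD, n = 3). It ranged from 41.5 to 86.7 FPKM with a median of 68.2 in the 9 untreated samples, and from 61.6 to 113 FPKM with a median of 75.3 in the 9 busulfan samples. Its log2 change with busulfan of 0.23 did not pass the test (95% interval -0.05 to 0.52, adjusted p = 0.181). The ratio of Elovl2 to Elovl5 FPKM, which weighs the later against the earlier elongase, was 0.273 to 0.881 without busulfan and 0.0923 to 0.258 with it.

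Elovl6 (gene 170439, chr3:129532386-129638495, plus strand), the elongase of saturated chains, was the least abundant member in every group. It stood at 3.44, 4.56 and 5.00 FPKM in A0 and at 5.67, 7.59 and 7.07 FPKM in B0, which do not overlap. For this and the members below, the share of all genes without overlap in 3 samples against 3 was not counted. In the other groups Elovl6 stood at 3.72, 6.18 and 5.03 FPKM in A10, 9.45, 6.11 and 6.45 FPKM in BA10, 3.47, 4.84 and 3.43 FPKM in A50, and 7.38, 5.24 and 5.62 FPKM in BA50. Averaged over AOS levels it rose by 0.52 ± 0.11 on the log2 scale (adjusted p = 0.00205; exact permutation p = 0.0005). No single level passed the test, with changes of 0.55, 0.48 and 0.53 at 0, 10 and 50 μg/mL AOS. With quantile normalization it was called in B0 compared to A0 (0.67, adjusted p = 0.0397) and in BA50 compared to A50 (0.63, adjusted p = 0.0389), and with sample quality weights in BA50 compared to A50 (0.40, adjusted p = 0.038). The 3 elongases thus moved in unlike ways, Elovl2 down, Elovl6 up and Elovl5 by less than its spread.

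Scd1 (gene 20249, chr19:44394450-44407709, minus strand) had the largest rise. It stood at 22.1, 33.6 and 40.1 FPKM in A0 and at 137, 63.3 and 88.9 FPKM in B0, 3.02 times the A0 mean with no overlap. In BA10 it stood at 124, 33.1 and 82.0 FPKM against 30.7, 38.4 and 43.1 FPKM in A10, and in BA50 at 61.7, 30.3 and 66.8 FPKM against 22.4, 22.3 and 27.6 FPKM in A50. The second replicates of BA10 and BA50 were at the level of untreated testes, and the BA10 samples overlap with A10 for that reason.

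The log2 rise of Scd1 was 1.15 ± 0.24 (SE) over the AOS levels (adjusted p = 0.00151; exact permutation p = 0.00125). It was called in B0 compared to A0 (1.53, adjusted p = 0.0227), where 13.8% of all genes were called, and this call is lost without A0 replicate 1 (adjusted p = 0.111), without B0 replicate 1 (adjusted p = 0.106) or without B0 replicate 3 (adjusted p = 0.06). It missed the threshold in BA10 compared to A10 (0.90, adjusted p = 0.151), where it was called once BA10 replicate 2 was left out (1.42, adjusted p = 0.0151), and in BA50 compared to A50 (1.03, adjusted p = 0.101), where it was called without BA50 replicate 2 (1.39, adjusted p = 0.0382) or without BA10 replicate 2, which enters only through the shared spread (adjusted p = 0.037).

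Fat cell markers and Scd1 were both highest in B0 replicate 1, where Cfd was at 114 FPKM against at most 1.61 FPKM in any untreated sample and Fabp4 at 567 FPKM. Scd1 is abundant in fat cells as well as in other cells. The fat cell marker sum was 118 to 186 FPKM in BA10 and 159 to 211 FPKM in BA50, the latter above all untreated samples, which had 119 to 140.0 FPKM. Scd1 stood above all 9 untreated samples in 4 of these 6 samples, and with A0 and B0 left out of the average its log2 rise was 0.96 (adjusted p = 0.0208). Deviations of Scd1 from the group means had an r of 0.096 with the mean of the fat cell markers and of -0.039 with Fabp4. These are descriptions over 18 samples. The part of fat cells in the Scd1 values of B0, BA10 and BA50 was not tested.

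Scd2 (gene 20250, chr19:44293676-44306864, plus strand) lies 87.6 kb from Scd1 on the same chromosome and is the isoform known from brain and from early life. It stood at 56.1, 58.7 and 63.8 FPKM in A0 and at 67.0, 85.0 and 95.8 FPKM in B0, with no overlap, and at 121, 52.0 and 78.2 FPKM in BA10 and 71.1, 49.4 and 73.6 FPKM in BA50. Its log2 rise over the AOS levels was 0.40 ± 0.14 (adjusted p = 0.0377; exact permutation p = 0.014). This call is the weakest of the 6: it was lost when any one of 12 of the 18 samples was left out, with adjusted p of up to 0.0749. It was lost as well with quantile normalization (adjusted p = 0.054) and without the filter on low values (adjusted p = 0.0502). It also missed the threshold with A0 and B0 left out of the average (0.38, adjusted p = 0.108). The ratio of Scd1 to Scd2 was 0.395 to 0.905 in the untreated samples, 0.613 to 1.05 in BA10 and BA50, and 2.04, 0.745 and 0.929 in B0.

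Reads of Scd1 and Scd2 are hard to part in places. Their coding sequences were identical at 90.3% of 1065 aligned bases, and 4.61% of the 50-base windows of Scd1 transcripts and 4.01% of those of Scd2 also occur in transcripts of another gene of the Scd family. The longest identical coding run is shown with 30 bases on each side, since a read from its inside fits both genes equally; capitals mark the differing bases. It spans exons 4 and 5 of both genes, chr19:44400311-44401835 on the minus strand for Scd1 and chr19:44299672-44301275 on the plus strand for Scd2.
Scd1: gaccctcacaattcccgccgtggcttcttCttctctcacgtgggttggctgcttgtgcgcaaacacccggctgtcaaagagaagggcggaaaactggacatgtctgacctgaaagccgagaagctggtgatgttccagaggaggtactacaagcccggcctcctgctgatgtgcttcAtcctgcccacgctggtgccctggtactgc
Scd2: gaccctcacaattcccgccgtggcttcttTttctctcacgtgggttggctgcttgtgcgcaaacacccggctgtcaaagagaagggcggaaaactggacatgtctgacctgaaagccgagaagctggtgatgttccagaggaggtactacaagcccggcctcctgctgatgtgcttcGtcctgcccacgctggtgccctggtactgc
The run without a difference is 147 bases long. How such reads were divided between both genes is not settled by the sources used here, so the levels of Scd1 and Scd2 are uncertain to that extent. Of the other members, Fads2 shared 0.157% of its windows, all with Fads3, Elovl6 shared 3.98%, and the remaining 6 shared 0.

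Fads2 (gene 56473, chr19:10062765-10101503, minus strand) and Fads1 (gene 76267, chr19:10182877-10196874, plus strand) lie 81.4 kb apart and code for the desaturases that act before and after the elongation by Elovl5. Fads1 stood at 38.5, 42.2 and 36.2 FPKM in A0 and 41.6, 50.6 and 48.0 FPKM in B0, and at 31.1 to 52.6 FPKM in BA10 and BA50. Fads2 stood at 23.1, 25.0 and 21.1 FPKM in A0 and 18.02, 27.6 and 25.7 FPKM in B0, and at 12.7 to 34.5 FPKM in BA10 and BA50. Both overlapped between busulfan and untreated testes at every AOS level. The log2 change with busulfan was 0.20 for Fads1 (95% interval -0.01 to 0.41, adjusted p = 0.123) and -0.01 for Fads2 (95% interval -0.35 to 0.34, adjusted p = 0.973). For Fads2 the sign is not settled, since other scalings and the removal of single samples turned it.

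Fasn (gene 14104, chr11:120805958-120825166, minus strand), which makes palmitate, stood at 18.1, 18.8 and 15.5 FPKM in A0, all above the other groups' means of 11.4 to 14.2 FPKM. It stood at 11.3, 10.6 and 15.4 FPKM in B0, just below A0 with no overlap, at 12.8, 10.9 and 12.9 FPKM in BA10, and at 13.1, 10.3 and 10.7 FPKM in BA50. Over the AOS levels it fell by 0.29 on the log2 scale (SE 0.08, adjusted p = 0.0139; exact permutation p = 0.00625). In B0 compared to A0 the change was -0.47 (adjusted p = 0.0427), a call that was lost without any one of 11 samples. Without A0 and B0 the average was -0.20 (adjusted p = 0.152). Fasn fell while the desaturases and the elongase that use its product, Scd1, Scd2 and Elovl6, rose in the same averaged comparison.

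Acsl6 (gene 216739, chr11:54303805-54364756, plus strand), which attaches CoA to long polyunsaturated acids such as docosahexaenoic acid, stood at 19.4, 13.5 and 18.3 FPKM in A0, 18.5, 20.5 and 30.1 FPKM in A10, and 25.4, 28.5 and 27.4 FPKM in A50. With busulfan it stood at 9.67, 12.2 and 6 FPKM in B0, 9.60, 12.7 and 11.7 FPKM in BA10, and 11.8, 17.7 and 16.7 FPKM in BA50. The busulfan samples were below the untreated samples at each AOS level, which was not counted over all genes. The log2 change was -0.86 ± 0.13 over the levels (adjusted p = 0.000106; exact permutation p = 0.00025, the smallest possible). It was -0.85 in B0 compared to A0 (adjusted p = 0.022), -0.94 in BA10 compared to A10 (adjusted p = 0.00931) and -0.80 in BA50 compared to A50 (adjusted p = 0.0229). In these last comparisons 18.9% and 19.9% of all genes were called, and Elovl2 and Acsl6 were the 2 members among them. The call of Acsl6 in B0 compared to A0 is lost without A0 replicate 1 or 3 or B0 replicate 3 (adjusted p of 0.0832 to 0.116). In BA10 compared to A10 it is lost without A10 replicate 3 (adjusted p = 0.0509), and in BA50 compared to A50 without A50 replicate 2 or 3 or BA50 replicate 1 (adjusted p of 0.0619 to 0.101).

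Within groups, Acsl6 moved with round spermatid as well as spermatocyte markers. Its deviations from the group means had an r of 0.829 with the round spermatid markers and of 0.735 with the spermatocyte markers (18 samples, a description). Per 100 FPKM of the spermatocyte marker sum it stood at 3.90 to 5.91 FPKM without and 7.15 to 10.4 FPKM with busulfan, and per 100 FPKM of the round spermatid sum at 3.39 to 5.01 FPKM without and 1.72 to 3.15 FPKM with it. With busulfan the round spermatid markers did not move as Acsl6 did: 7 of 10 lay above 0 with a median log2 change of 0.386, and the 2 that fell were Tex101 (-5.56) and Spag6l (-1.25). The part of either marker list in the change of Acsl6 was not tested.

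Agpat3 (gene 28169, chr10:78269174-78352497, minus strand), which esterifies acyl chains into phospholipid precursors with a preference for polyunsaturated ones, varied least. It stood at 59.7, 50.6 and 57.1 FPKM in A0 and at 53.4, 51.4 and 47.4 FPKM in B0, and its 18 values lay between 47.4 and 73.0 FPKM. The log2 change with busulfan was -0.08 (95% interval -0.21 to 0.05, adjusted p = 0.333).

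**Figure D3:**
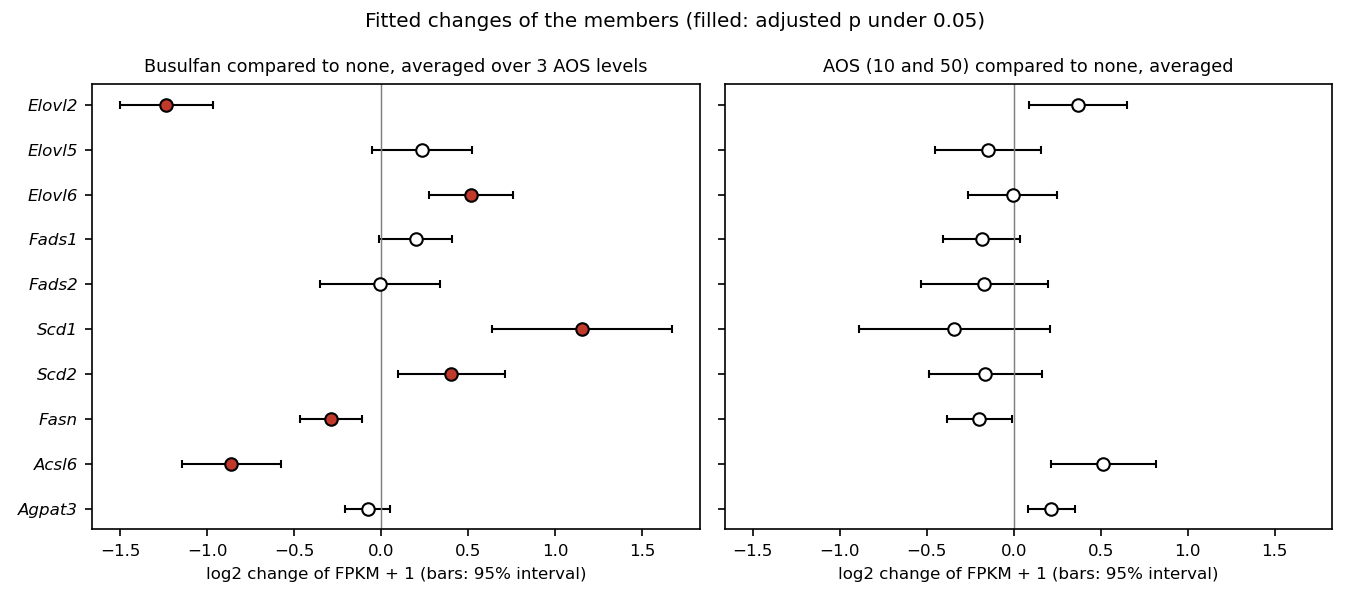
Fitted log2 changes of FPKM + 1 (horizontal axes) for the 10 genes (vertical axis), with busulfan averaged over 3 AOS levels (left) and with AOS averaged over both concentrations with and without busulfan (right); points are estimates, bars 95% intervals, and filled points have an adjusted p under 0.05. In the left panel 6 points are filled, from Elovl2 at -1.23 to Scd1 at 1.15, and in the right panel none is.

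AOS itself changed none of the 10 genes past the threshold in limma. The count was 0 in A10 compared to A0 and A50 compared to A0, where 0% of all genes were called, in BA10 compared to B0 (0.0253% of all genes called), in BA50 compared to B0 (0.095%) and in the average over both concentrations with and without busulfan (0.0443%). At an unadjusted p under 0.05 there were 1, 2, 0, 2 and 4 of the 10 genes in these comparisons, beside 15.2%, 15.6%, 5.05%, 24.3% and 33.5% of all genes tested. Limma with sample quality weights called 1, 3, 2 and 3 of the 10 in A10 and A50 compared to A0, BA50 compared to B0 and the average, beside 3268, 5948, 3867 and 4894 of all 15790 genes, and 0 of the 10 in BA10 compared to B0. The counts of members are near these shares of all genes. The change with AOS in busulfan testes minus that in untreated testes was called for 0 genes of the whole table at either concentration (0%), with 0 of the 10 genes at an unadjusted p under 0.05.

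The members nearest to the threshold with AOS were Acsl6, Agpat3 and Elovl2, all above 0. Averaged over AOS, Acsl6 differed by 0.51 ± 0.14 (SE; adjusted p = 0.063, exact permutation p = 0.00524 over 7056 arrangements), Agpat3 by 0.22 ± 0.06 (adjusted p = 0.0671, exact permutation p = 0.00468) and Elovl2 by 0.37 ± 0.13 (adjusted p = 0.0928, exact permutation p = 0.0137). In A50 all 3 Acsl6 values, all 3 Elovl2 values and all 3 Agpat3 values (62.1, 65.9 and 63.6 FPKM) were above all A0 values. In BA50 the 3 Agpat3 values (64.6, 73.0 and 59.8 FPKM) were above all B0 values, whereas those of Acsl6 and Elovl2 overlapped with B0. Acsl6 and Agpat3 differed by 0.70 (adjusted p = 0.118) and 0.37 (adjusted p = 0.106) in BA50 compared to B0, and with the replicate number as a block, which took the calls there from 15 to 4 of all genes, the adjusted p was 0.137 and 0.127. With 3 samples against 3, an exact test of a single comparison cannot go below 0.1, the value given by groups without overlap. The share of all genes without overlap in comparisons of 3 against 3 was not counted, so no result about the members rests on it.

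Marker sums of germ cells moved in both directions with AOS. The spermatogonium sum was 127 to 184 FPKM in A0 and 118 to 127 FPKM in A50, with 8 of 9 tested markers below 0 for AOS averaged. In busulfan testes this sum was higher with 50 μg/mL AOS, at 82.0 to 111 FPKM in BA50 against 56.7 to 75.1 FPKM in B0. There 5 of the 9 markers lay above 0 and 4 below. The spermatocyte marker sum was 327 to 409 FPKM in A0 and 510 to 543 FPKM in A50, and 113 to 195 FPKM in BA50 against 81.7 to 134 FPKM in B0. The elongating spermatid sum was 6435 to 13320 FPKM in BA50 and 3094 to 4361 FPKM in B0. In each of the 4 germ cell lists, spermatogonia to elongating spermatids, 0 markers passed the test for AOS averaged, and their part in the values of Acsl6, Agpat3 and Elovl2 was not tested. Fasn went the other way, by -0.20 (adjusted p = 0.138), and all A10 and A50 values of Fasn were below all A0 values. Calls of Elovl2, Acsl6 and Agpat3 with AOS came and went with single samples: without BA50 replicate 1 all of them passed (adjusted p = 0.0351, 0.026 and 0.0438).

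The order of levels per length differed with busulfan. In A0 it ran from Elovl5 (74.5 FPKM) over Scd2 (59.5), Agpat3 (55.8), Fads1 (38.9), Scd1 (31.9), Elovl2 (26.3), Fads2 (23.1), Fasn (17.5) and Acsl6 (17.1) to Elovl6 (4.33), all as means of 3. Scd2 and Agpat3 in A0 differed by less than the SD of either, as did Fasn and Acsl6, and Scd1, Elovl2 and Fads2 lay within the larger SD of their neighbours, while Agpat3 lay clear of Fads1 and Acsl6 clear of Elovl6. In B0 Scd1 was first (96.4 FPKM, SD 37.4), within its spread of Elovl5 (83.3) and Scd2 (82.6), and Elovl2 was in place 8 at 11.8 FPKM. In A50 Elovl2 was in place 4 at 39.3 FPKM, ahead of Fads1 at 34.5 FPKM by slightly more than the SD of either.

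Within groups the members fell into those that swung together and those that swung against them. Deviations of Fads2 from the group means had an r of 0.971 with those of Fads1 and of 0.94 with those of Scd2, and Scd1 had 0.604 with Scd2 and 0.56 with Fads1 (18 samples that share library, scaling and a fit of group means; descriptions). BA10 replicate 1 was the highest of its group in Scd1, Scd2, Fads1, Fads2, Elovl5 and Elovl6, and BA10 replicate 2 the lowest in these, by 3.76-fold in Scd1, 2.72-fold in Fads2, 2.34-fold in Scd2 and 1.68-fold in Fads1. BA50 replicate 2 was lowest of its group in the same 6 genes. Acsl6, Agpat3 and Elovl2 lay on the other side. Acsl6 had an r of 0.801 with Elovl2 and 0.638 with Agpat3, whereas Agpat3 and Elovl2 had 0.288. Agpat3 had -0.676 with Fads1 and -0.645 with Fads2, and Elovl2 was less opposed, at -0.322 and -0.256. Acsl6 had -0.88 with Fasn and -0.713 with Elovl5.

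Cyp11a1, the first enzyme of steroid synthesis in Leydig cells, stood at 759, 228 and 414 FPKM in BA10 and at 388, 233 and 319 FPKM in BA50, and its deviations had an r of 0.884 with Scd2, 0.755 with Scd1 and 0.755 with Fads2. Other Leydig cell genes were less alike, with an r of 0.706 for Insl3 and 0.549 for Star with Scd2, and 0.329 and -0.058 with Scd1. The mean of the Leydig cell markers had an r of 0.807 with Scd2, 0.632 with Scd1, 0.648 with Fads1 and 0.679 with Fads2. Macrophage markers were also alike, with 0.646, 0.632, 0.623 and 0.58 for the same genes, so the likeness was not particular to Leydig cell genes. The 2 samples lowest in Cyp11a1 in these groups were the highest in the spermatid gene Prm1, at 1807 FPKM in BA10 replicate 2 and 3057 FPKM in BA50 replicate 2. BA50 replicate 2 was not low in all Leydig cell genes. Its Star level of 332 FPKM was the highest of BA50, and its Leydig cell marker sum was 1268 FPKM in a group range of 1142 to 1361 FPKM. Scd2 stood at 5.37 to 7.86 FPKM per 100 FPKM of the Leydig cell marker sum without busulfan and at 3.90 to 8.02 with it, whereas Scd1 stood at 2.50 to 4.97 and 2.39 to 14.6. With busulfan averaged over the AOS levels 1 of the 7 Leydig cell markers tested was called higher, beside 38.1% of all genes called. Of these 7 markers 6 lay above 0, with a median log2 change of 0.31. Their sum averaged 833, 943 and 871 FPKM in A0, A10 and A50, and 1218, 1515 and 1257 FPKM in B0, BA10 and BA50. The part of cell make-up in the values of Scd1, Scd2, Fads1 and Fads2 was not tested.

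**Figure D4:**
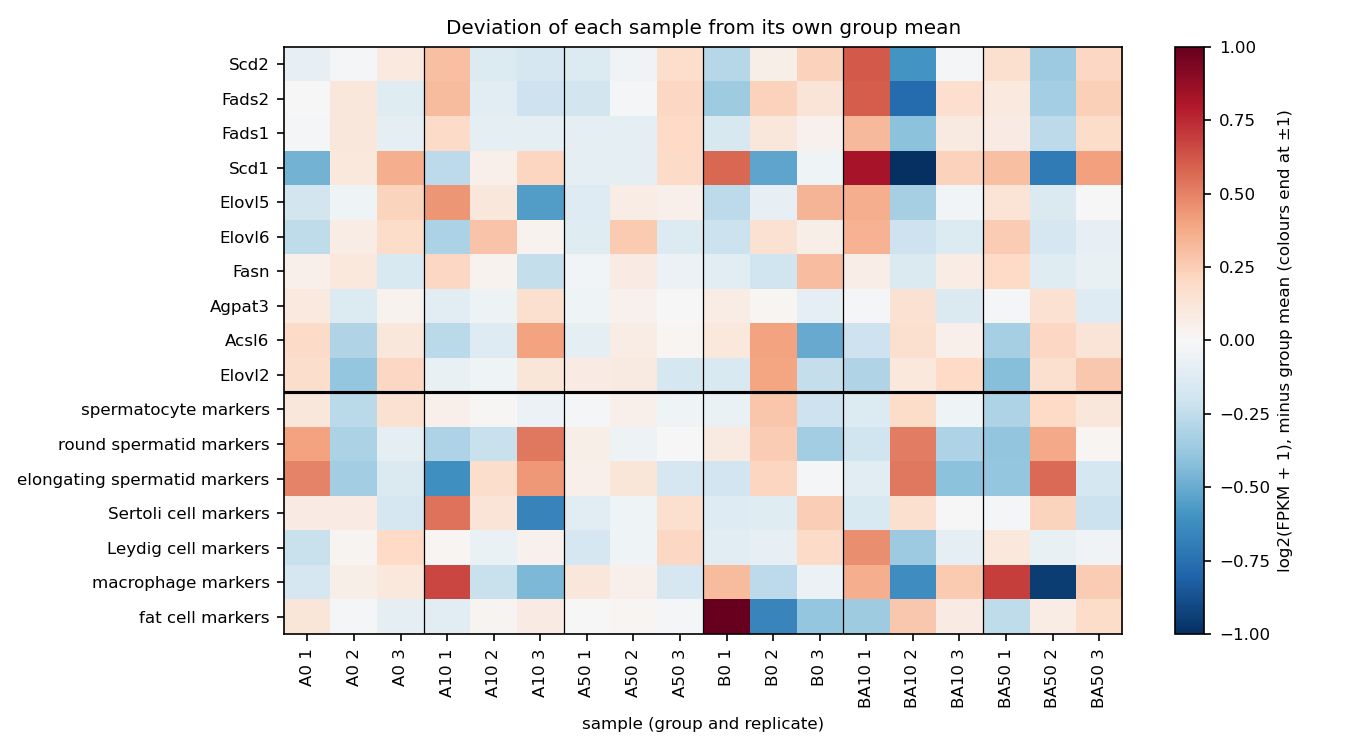
Deviation of each sample (columns, by group and replicate) from the mean of its own group, in log2(FPKM + 1), for the 10 genes (rows above the line) and for the mean of 7 marker lists (rows below it); red is above and blue below the group mean, and colours end at 1 and -1. Scd2, Fads2, Fads1 and Scd1 are blue in BA10 replicate 2 and BA50 replicate 2. Acsl6 and Elovl2 follow the spermatocyte and spermatid rows, least closely for Elovl2 and elongating spermatids (r = 0.475). Spermatogonium markers, which are not drawn, went the other way, with an r of -0.625 with Acsl6 and -0.544 with Elovl2. Simple epithelium markers, also not drawn, had an r of 0.612 with Acsl6 and 0.635 with Elovl2. The likeness was therefore not particular to germ cell markers.

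The genes most like the members over the 18 samples were found by Pearson r of log2(FPKM + 1), outside the 10. For Elovl2 they were Cfap97 (r = 0.991), at 70.8 FPKM without and 28.7 FPKM with busulfan, and Grik5 (r = 0.987). For Acsl6 they were Spata16 (r = 0.994), a gene of spermatid acrosome formation that stood at 86.2 FPKM without and 46.0 FPKM with busulfan, and Ptpdc1 (r = 0.993). For Scd1 they were Ephx1 (r = 0.95), the microsomal epoxide hydrolase, and Glrx (r = 0.932), for Elovl6 Slc7a11 (r = 0.902), the cystine transporter, and Serpinb1b (r = 0.901), and for Scd2 Phyh (r = 0.933), the peroxisomal phytanoyl-CoA hydroxylase, and Ggta1 (r = 0.914). The likeness of Elovl2 and Acsl6 to their nearest genes was closer than that of the members that rose.

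Around the 10 genes, 88 further genes of fatty acid metabolism were followed in 8 lists, of which 80 passed the filter. With busulfan averaged over the AOS levels 31 rose and 7 fell, 47.5% of those tested against 38.1% of all genes, with a median log2 change of 0.186 against 0.012. The counts of the single lists below are from this comparison and are to be read against the same 38.1%. At single AOS levels 7, 16 and 12 of the 80 were called in B0, BA10 and BA50 against their untreated groups, which is 8.75%, 20% and 15% beside 13.8%, 18.9% and 19.9% of all genes, and with AOS 0 were called in every comparison.

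Among the other elongases and desaturases 4 of 5 tested genes rose and 0 fell. Fads3, a paralog of Fads1 and Fads2, rose from 14.2 ± 2.98 to 20.5 ± 2.77 FPKM (SD, n = 9; log2 change 0.52, adjusted p = 0.00204), and Elovl1, which lengthens saturated very long chains, rose from 21.5 to 26.7 FPKM (0.31, adjusted p = 0.00754). Elovl3, Elovl4, Elovl7 and Scd4 averaged under 0.31 FPKM and were not tested. Elovl4, the elongase that carries polyunsaturated chains beyond those of Elovl2, was thus near the lower end of the table at 0.307 FPKM.

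Of the elongation cycle and its electron supply 5 of 9 rose and 0 fell. Cyb5a, which hands electrons to the desaturases, rose from 211 to 355 FPKM (0.78, adjusted p = 0.000255), and Hsd17b12, the ketoacyl reductase of the elongation cycle, from 57.1 to 71.5 FPKM (0.33, adjusted p = 0.00802). In the supply of malonyl-CoA and NADPH 2 rose and 2 fell of 10, near the 38.1% of all genes called. Acss2, which makes acetyl-CoA from acetate, fell from 16.6 to 7.41 FPKM (-1.06, adjusted p = 4.94e-07) and Mcat, the mitochondrial malonyl transferase, from 19 to 12.6 FPKM (-0.56, adjusted p = 2.29e-06), while G6pdx, the source of NADPH, rose from 43.6 to 65.9 FPKM (0.61, adjusted p = 0.00104). Acss2 and Mcat thus fell in the same comparison as Fasn.

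Of the lipogenic regulators 4 of 11 rose and 0 fell, near the 38.1% of all genes called. Srebf1, a main activator of desaturase genes, rose from 9.25 ± 1.14 to 11.2 ± 1.27 FPKM (SD, n = 9, log2 change 0.25, adjusted p = 0.0118). Ppard rose from 8.01 to 10.7 FPKM (0.37, adjusted p = 0.000674). Of the acyl-CoA synthetases besides Acsl6, 4 rose and 1 fell of 10. The one that fell was Acsl3, from 12.2 to 6.22 FPKM (-0.94, adjusted p = 0.000251), and Acsl4, which prefers arachidonic acid, rose from 86.7 to 128 FPKM (0.54, adjusted p = 0.00386). Acsl6 stood at 0.167 to 0.516 of the Acsl4 level without busulfan and at 0.0414 to 0.162 with it.

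Of the glycerophospholipid acyltransferases besides Agpat3, 5 rose and 3 fell of 16. Gpat2, the mitochondrial acyltransferase that is known from germ cells, fell from 10.6 ± 1.53 to 0.974 ± 0.281 FPKM (SD, n = 9; -2.56, adjusted p = 1.63e-12), the largest fall of these lists, and Agpat2 rose from 16.3 to 22.7 FPKM (0.45, adjusted p = 0.000103). Of the peroxisomal beta-oxidation genes, which shorten very long chains, 4 of 10 rose and 0 fell, near the 38.1% of all genes called. Scp2, a thiolase and lipid carrier, rose from 34.3 to 42.8 FPKM (0.32, adjusted p = 0.00272). Of the uptake and binding genes 3 rose and 1 fell of 9. Lpl, which frees fatty acids from lipoproteins, rose from 9.88 to 27.3 FPKM (1.27, adjusted p = 0.000106) and Cd36, a fatty acid carrier, from 55.6 to 78.6 FPKM (0.49, adjusted p = 0.00361). Both are also abundant in fat cells, 7 of 8 of whose tested markers rose in the same comparison, and the part of fat cells in these rises was not tested.

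**Figure D5:**
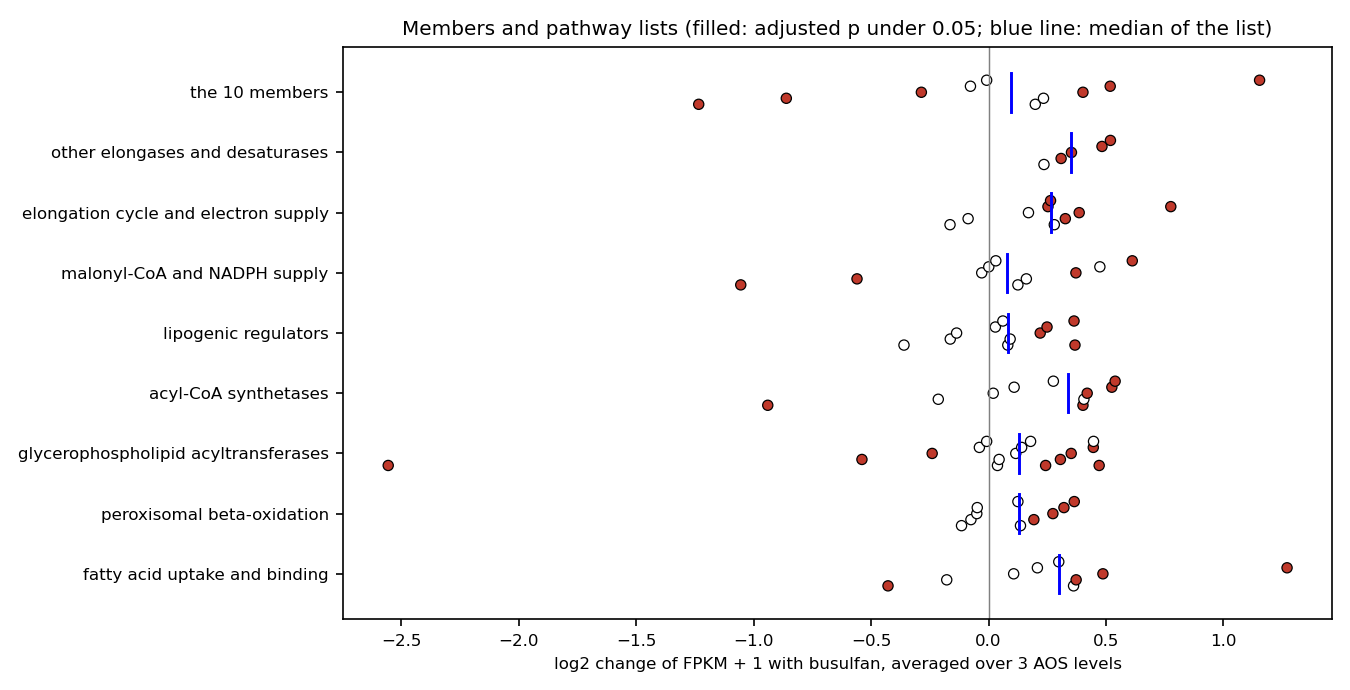
Log2 change of FPKM + 1 with busulfan averaged over 3 AOS levels (horizontal axis) for the 10 genes and the 80 tested genes of 8 lists (rows), 1 point per gene, filled where the adjusted p was under 0.05, with a blue line at the median of each list. Filled points lie mostly right of 0, and Gpat2 at -2.56 lies farthest to the left.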

How the data were processed

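The authors deposited 1 table of FPKM values, given to 2 decimals for 22657 genes in 18 samples, with no counts. The submitters' processing notes name HISAT, Bowtie2 and RSEM with build GRCm38.p5, whereas the methods of the study describe SOAPaligner and RPKM for oligo(dT)-selected RNA, so the way reads were divided between similar genes is not settled. NCBI numbers were present for 20811 rows, and 20656 received a symbol from RefSeq (GRCm38.p6), which also gave positions and promoter sequences.

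Values were tested as log2(FPKM + 1), which understates changes of low genes, with limma 3.58.1 (R 4.3.3, trended eBayes, 1 coefficient per group over all 18 samples, no further scaling), after a filter of at least 1 FPKM in at least 3 samples. Calls had a Benjamini-Hochberg adjusted p under 0.05 over the 15790 genes. The 2-sided exact permutation tests exchanged samples within AOS levels or within busulfan states, and were not corrected over members. Samples of the same replicate number deviated alike in B0 and BA50 (r of deviations 0.562, 0.422 and 0.138 for numbers 1, 2 and 3), but the labels state no pairing. The fit was tested on simulated data. The 10 members, the gene lists and the markers were chosen with earlier results of these data known. The genes named were the 10 members, up to 3 genes of the lists with the largest rise and fall with busulfan averaged, up to 2 per list by smallest p, and the 2 genes most like each of the 5 members that changed most; 1 gene that this rule names is not reported here. Groups follow the sample labels; the AOS unit is that of the labels (μg/mL).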

Additional observations from a re-analysis of the deposited data

How the results depend on the processing

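Of 948 values over 34 member changes and the alternatives tried, 862 kept their direction and their side of the threshold, 46 were no longer called, 30 were newly called and 10 changed sign; the 10 were all of Fads2 with busulfan averaged, which was not called: it was 0.047 with quantile normalization, 0.043 with upper quartile scaling, 0.205 with sample quality weights and 0.017 with A10 replicate 3 and B0 replicate 1 left out together, and -0.109 to 0.120 with single samples left out. With the limits of the study's methods (adjusted p of at most 0.001 and a log2 change of at least 1) the members called fell to 1 (Elovl2) with busulfan averaged, 0 in B0 compared to A0, 0 in BA10 compared to A10 and 1 in BA50 compared to A50. Sample quality weights, whose fit did not fully converge, gave 7, 6, 1, 3, 2 and 3 in BA10 and BA50 against their untreated groups, A10 and A50 against A0, BA50 against B0 and AOS averaged, where they called 6734, 8376, 3268, 5948, 3867 and 4894 of all genes; the cause was not tested. Fitting only the groups compared gave 2 in B0 compared to A0, with fewer samples and 1642 of all genes called. Leaving out A10 replicate 3 and B0 replicate 1 together, chosen after seeing the data, gave 2 in B0 compared to A0 and 1 in BA10 compared to A10. Of all genes 2249 and 2248 were then called. The average without A0 and B0 was also chosen after seeing the data, and ended the calls of Scd2 and Fasn. With single samples left out the count was 1 to 4 in B0 compared to A0 (1 without A0 replicate 1, 2 without B0 replicate 1 or 3), 1 to 4 in BA10 compared to A10 (1 without A10 replicate 3, 4 without BA10 replicate 2), 1 to 3 in BA50 compared to A50 (1 without A50 replicate 2 or 3 or BA50 replicate 1), 5 to 7 with busulfan averaged, 0 to 1 in BA50 compared to B0 and 0 to 3 with AOS averaged (2 without A10 replicate 1, 1 without B0 replicate 2, 3 without BA50 replicate 1). The share of all genes called in each of these fits is not set beside its count, so the ranges are not a result about the members. Of 45 pairs of same-numbered samples 16 had an r of deviations over 0.1, with a median of 0.013 and a range of -0.661 to 0.674. All 3 pairs were over 0.1 between B0 and BA50 and between BA10 and BA50, and in no other pair of groups. The labels state no pairing, and these correlations cannot show whether samples of the same number shared a repeat. With the replicate block the count in B0 compared to A0 was 3 (Fasn adjusted p = 0.0579), and the block changed no other call of a member. It took the calls with AOS averaged from 7 to 0 of all genes. Depth is unknown, so no counting error can be given, and 3 samples a group limit the precision.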
